A study of Homo sapiens with 6 samples.

Results

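Control-only origin regions are stretches of the genome where nascent-strand peaks were listed in both control samples and in neither siORCA sample of U2OS cells. The peak lists of 4 samples were pooled over chromosomes 1 to 22 and X, peaks that touched or overlapped were merged into regions, and each region was marked as present or absent in each list. Of 534833 regions, 8954 were control-only, which is 1.67% of all regions. The same rule in the other direction (both siORCA lists and no control list) gave 29106 siORCA-only regions, 5.44% of all regions, and 57116 regions were found in all 4 lists (all-4 regions below). The members were chosen by presence or absence of peaks in the 4 lists, so their number, strength and width describe the rule and test nothing.

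U2OS is a human osteosarcoma cell line. The siORCA samples (2) were transfected with siORCA, an siRNA against ORCA, and the control samples (2) with the control siRNA gl3. All 4 were grown in the same medium and gave short nascent DNA by size fractionation and exonuclease digestion, and separate cultures are not stated for the replicates. A p-value here measures only the spread between the 4 libraries, which can be technical. A genomic DNA sample for each transfection was not analysed here, and the level of ORCA could not be checked because the assay reads DNA.

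Replication starts at origins, where the origin recognition complex binds in advance of S phase and loads the replicative helicase. Human cells license far more sites than they use, so many origins fire in only part of the cells, and the stretches between strong origins hold weaker and more variable ones. ORCA, encoded by LRWD1, is a WD-repeat protein that associates with this complex and stabilises its hold on chromatin. In nascent-strand sequencing, short strands that begin with an RNA primer withstand exonuclease, so a peak marks DNA near a start site that was used in part of the cell population.

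The lists of siORCA 1 and siORCA 2 held 329933 and 198486 peaks on these chromosomes, and those of control 1 and control 2 held 181132 and 235444. They covered 86.1 and 64.0 Mb in siORCA 1 and siORCA 2, and 58.5 and 67.0 Mb in control 1 and control 2. No read counts are given, so depth is unknown, and a region can be missing from a list because of depth as well as because of origin use. How far depth set the membership was not tested.

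Control-only regions were the least frequent kind among the 96583 regions found in exactly 2 lists, at 9.27% of these. The siORCA-only regions made up 30.1%, and the regions that joined 1 siORCA list with 1 control list made up between 10.3% and 23.9% for each pair of lists. Among the 81698 regions with peaks in both control lists, 69.9% were also in both siORCA lists, 9.27% in siORCA 1 alone of the siORCA lists and 9.86% in siORCA 2 alone. The remaining 11.0% were the control-only regions. Of the 130397 regions with peaks in both siORCA lists, 22.3% were siORCA-only. The ratio of siORCA-only to control-only regions was 3.25 in the lists as deposited and 1.61 when every list was shortened from its weakest peak to the covered length of the shortest (17820 siORCA-only and 11040 control-only regions). With peaks below a −log10 q of 3 dropped from every list, 1973 regions were control-only and 26432 were siORCA-only. Regions were classed anew here, so a dropped siORCA peak can make a region control-only. Of the 8954 control-only regions, 894 reached this q in both control lists. Without siORCA 1 the control-only regions numbered 16415, and without siORCA 2 they numbered 17205. Without control 1 they numbered 104393 and without control 2 57155, and these are then regions of a single control list.

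Control-only regions ranked below all-4 regions in strength and above regions of a single control list. The authors' fold enrichment, the caller's linear ratio of signal over background, had a median of 3.59 in control 1 (range 2.83 to 18.1) and 3.92 in control 2 (range 2.94 to 18.1). Ranked within each list, the strongest peak of a control-only region lay at a median percentile of 38.1 in control 1 and 48.9 in control 2. The same ranks for all-4 regions were 74.3 in control 1 and 75.5 in control 2, and those for regions of 1 control list alone were 27.8 in control 1 and 34.5 in control 2. The median fold over all peaks of a list was 3.82 in control 1 and 3.94 in control 2, so control-only peaks were weaker than the middle of the control 1 list and near the middle of the control 2 list. The siORCA-only regions had median percentiles of 54.5 in siORCA 1 and 40.6 in siORCA 2. Of the control-only regions, 894 (9.98%) reached a −log10 q of 3 in both control lists and 4530 (50.6%) reached it in neither. For siORCA-only regions these shares were 36.6% and 18.9%, in lists whose median −log10 q was itself higher, at 3.88 in siORCA 1 and 3.30 in siORCA 2, against 2.42 in control 1 and 2.68 in control 2.

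The share of control regions missing from the siORCA lists was lower at each step of strength. Where the weaker of the control ranks lay in the bottom 10% of its list, 26.0% of regions with both control lists had no siORCA peak (1849 of 7111). Between the 40 and 50 percentiles this was 11.4%, and between 80 and 90 it was 2.15%. Of the 8185 regions that ranked in the top 10% of both control lists, 38 (0.464%) were control-only. The siORCA-only share followed a like course, with 42.1% in the lowest 10% and 2.30% (254 of 11061) in the highest.

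**Figure D1:**
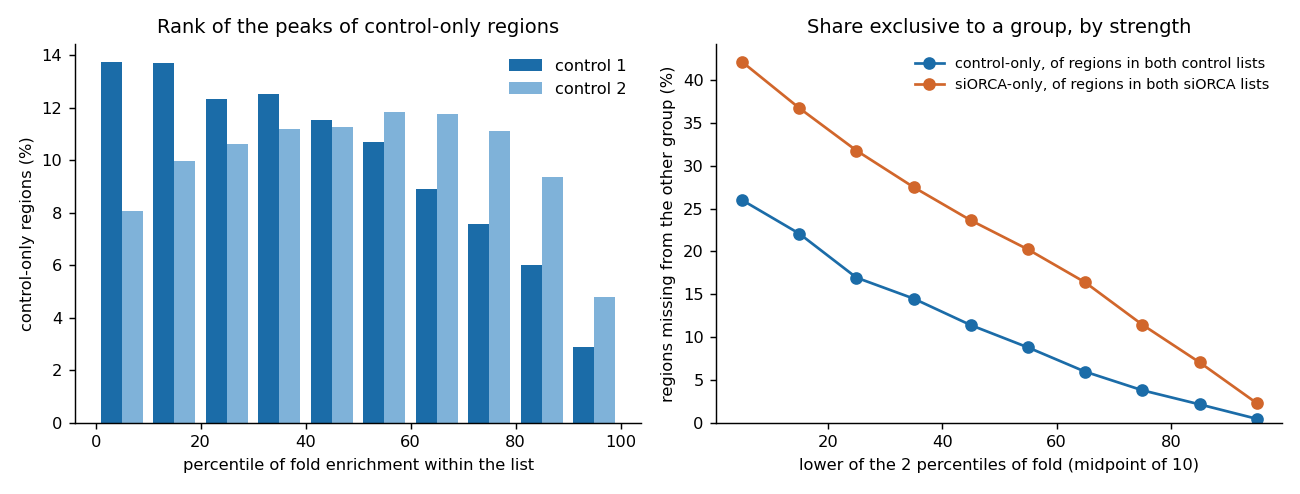
Left, share of the 8954 control-only regions (vertical axis, %) by the percentile of fold enrichment of their strongest peak in control 1 (dark) and control 2 (light). Right, share of regions listed in both lists of a group that had no peak in the other group (%), by the lower of the 2 percentiles: the control-only share (blue) was 26.0% in the lowest 10% and 0.464% in the highest, and the siORCA-only share (orange) was 42.1% and 2.30%.

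A few control-only regions ranked high in both control lists. The one whose lower rank of the 2 control lists was highest lay on chromosome 6 at chr6:91664997-91665183 on T2T-CHM13, where control 1 had a 9.24-fold peak (−log10 q 13.1) and control 2 a 9.44-fold peak (−log10 q 13.1). It was 187 bp wide. The nearest siORCA 1 peak was 8319 bp away, the nearest siORCA 2 peak 13449 bp and the nearest all-4 region 105070 bp.

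On chromosome 5, the region at chr5:161298910-161299142 had a 10.1-fold peak in control 1 and an 8.32-fold peak in control 2. A siORCA 2 peak lay 1954 bp from it and the nearest siORCA 1 peak 20513 bp. The region at chr7:105899371-105899848, 478 bp wide, had the highest −log10 q of these in a single list, 24.7 in control 1 at 12.8-fold, and reached 10.2 in control 2 at 7.71-fold. Both siORCA lists had their nearest peaks at about the same distance from it, 20083 bp in siORCA 1 and 20122 bp in siORCA 2, in a siORCA-only region.

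On chromosome X, the region at chrX:99829204-99829525 had a 7.43-fold peak in control 1 and an 8.89-fold peak in control 2, with siORCA 1 and siORCA 2 peaks 8522 and 8340 bp away. The region at chr16:79844323-79844730 had 9.25-fold and 7.47-fold peaks in control 1 and control 2, and its nearest control-only neighbour was 531226 bp away. The region at chr1:85138642-85138757 was the one of these 6 within 10 kb of an all-4 region, with peaks of 7.78-fold in control 1 and 7.48-fold in control 2. A siORCA 1 peak was 773 bp from it, a siORCA 2 peak 1805 bp and an all-4 region 6148 bp. Of these 6 strong regions, 5 lay over 100 kb from the nearest all-4 region, where 18.2% of all control-only regions did. Over all 38 control-only regions in the top 10% of both control lists, 12 lay over 100 kb from an all-4 region and 14 within 10 kb, with a median gap of 20117 bp. No gene annotation of this genome build was used, so positions carry no gene names.

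The width of control-only regions had a median of 311 bp (quartiles 203 and 499 bp), against 254 bp for siORCA-only regions and 669 bp for all-4 regions. Regions of more lists are unions of more peaks, which adds to their width. Within control-only regions, the length covered by peaks was similar in both controls, with a median of 186 bp in control 1 and 184 bp in control 2. Control 1 covered more bases than control 2 in 52.4% of the regions. Nearly all control-only regions, 8930 of 8954, held exactly 1 peak from each control list. The overlap of those 2 peaks had a median of 93.3% of the shorter peak, and in 3575 of the 8930 the shorter peak lay fully inside the longer one. In 15.8% the overlap was under 50% of the shorter peak, against 9.04% among siORCA-only regions. Some contact between these peaks was required by the rule, so the overlap is a description of the members.

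The widest control-only regions owed their width to 1 sample. At chr6:162204148-162206557 (2410 bp), control 1 covered 2410 bp and control 2 193 bp, with fold enrichments of 4.66 and 4.56. At chr8:43027697-43030079 (2383 bp) the order was the other way, with 151 bp in control 1 and 2383 bp in control 2, and a siORCA 1 peak began 53 bp from its edge. At chr3:166803925-166806020 (2096 bp), control 1 covered 2096 bp and control 2 774 bp, and the nearest all-4 region was 1301870 bp away. Regions over 1000 bp numbered 220 (2.46%).

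Most control-only regions had some siORCA peak within a few kilobases, and regions of other classes had similar gaps to the opposite group. The gap to the nearest peak of either siORCA list had a median of 1725.5 bp (quartiles 702 and 4353.5 bp), and 90.4% of control-only regions had one within 10 kb. For siORCA-only regions the gap to the nearest control peak had a median of 1709 bp, and 91.7% had one within 10 kb. Regions of control 1 alone and control 2 alone had median gaps of 2025 and 2205 bp to a siORCA peak, with 87.4% and 86.1% within 10 kb. All-4 regions hold siORCA peaks themselves, so the gap to one cannot be shorter than that to the nearest region with a siORCA peak. The gap to the nearest all-4 region had a median of 17775 bp (quartiles 4615.5 and 64863 bp), and ranged from 3 to 9113359 bp. For siORCA-only regions the median gap to an all-4 region was 10485 bp, and for the regions in both control lists and 1 siORCA list it was 9847.5 bp. An all-4 region stood within 10 kb of 38.6% of control-only regions and of 49.0% of siORCA-only regions. It was over 100 kb away from 18.2% of control-only regions and from 11.2% of siORCA-only regions. The regions of 1 list alone had median gaps to an all-4 region of 21538.5 bp (siORCA 1), 16477.5 bp (siORCA 2), 24939 bp (control 1) and 27514.5 bp (control 2). The control-only median was shorter than these, except that of siORCA 2. Neighbouring regions are not independent replicates, and these gaps are descriptions with no test.

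Regions nearer to an all-4 region were wider, at a similar median strength. The 656 control-only regions within 1 kb of an all-4 region had a median width of 375 bp, and the 1634 farther than 100 kb away had one of 274 bp. The median fold enrichment of the same regions was 3.58 and 3.59 in control 1, and 3.87 and 3.96 in control 2. Sorted into 4 equal parts by the lower of their ranks, the median gap to an all-4 region was 19586 bp in the weakest part, 16526 and 16510 bp in the middle parts and 18574 bp in the strongest.

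The nearest siORCA-only region was farther off than the nearest all-4 region for most members. Its gap had a median of 28086 bp (quartiles 10153 and 72308.5 bp). A siORCA-only region lay within 1 kb of 265 control-only regions (2.96%) and within 10 kb of 24.8%. All-4 regions themselves had a median gap of 14692.5 bp to a siORCA-only region, and regions of the control 1 and control 2 lists alone had 32754 and 34971 bp. Control-only sites did not lie nearer to siORCA-only sites than all-4 regions did. Over 1 Mb windows, siORCA-only counts followed all-4 counts (Spearman's rho 0.87) more closely than control-only counts (0.58). The part of this density in the gaps was not tested. The siORCA-only region was the nearer of these neighbours for 3662 control-only regions (40.9%), and an all-4 region was for 5291 (59.1%). Neither stood within 10 kb of 4528 (50.6%), and neither within 100 kb of 737 (8.23%). The classes differ in number, 57116 all-4 and 29106 siORCA-only regions, and siORCA-only regions lay a median of 82517 bp from the 8954 control-only ones. The order of the medians changed with the lists. With peaks below a −log10 q of 3 dropped from every list, control-only regions classed anew had a median gap of 25691 bp to a siORCA-only region. Their median gap to an all-4 region was 31560 bp. Without siORCA 2 these gaps were 3855 and 11153 bp, and without siORCA 1 they were 10908 and 11312 bp. The class sizes changed too. At the stricter q there were 26432 siORCA-only and 24756 all-4 regions. Without siORCA 2 there were 176879 siORCA-only regions and 64176 found in all lists left, and without siORCA 1 there were 66035 and 64846. The part of these numbers in the order was not tested.

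**Figure D2:**
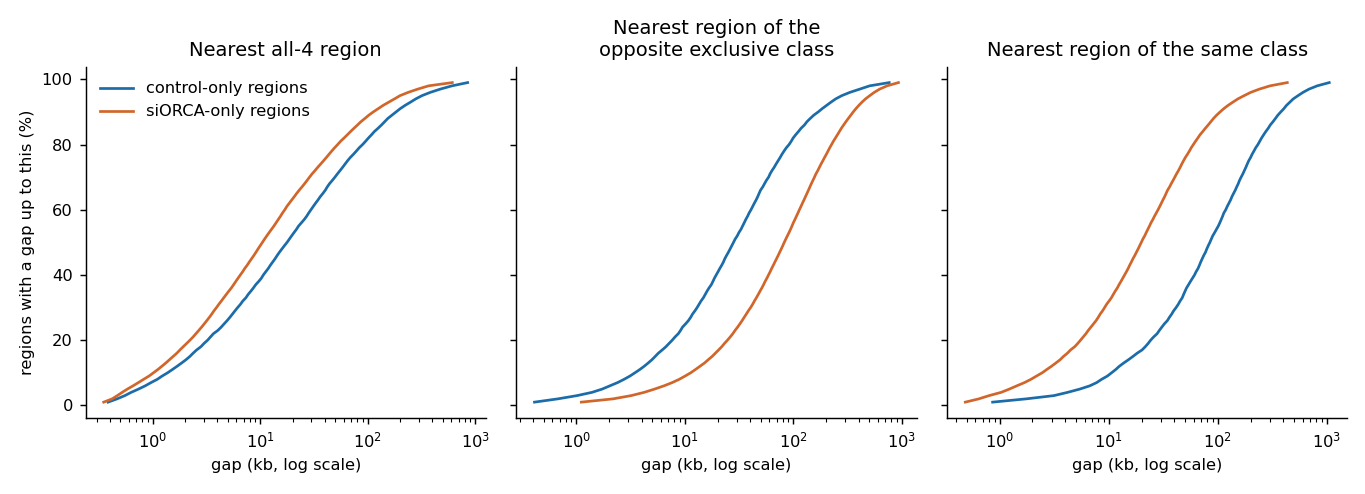
Cumulative share of regions (vertical axis, %) by gap in kb on a log scale, for control-only (blue) and siORCA-only (orange) regions: to the nearest all-4 region (left, medians 17775 and 10485 bp), to the nearest region of the opposite exclusive class (middle, medians 28086 and 82517 bp) and to the nearest region of the same class (right, medians 84750 and 19922 bp). Curves run from 1% to 99% of regions.

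The kinds of region that held the siORCA peak nearest to a control-only region are set here beside their shares of all regions with a siORCA peak. In 40.2% of cases it belonged to a region of siORCA 1 alone, a kind that made up 37.5% of all regions with a siORCA peak. It was an all-4 region in 13.2% of cases, against 14.9% of all such regions, and a siORCA-only region in 7.07%, against 7.57%. A siORCA 1 peak was nearer than any siORCA 2 peak for 68.3% of control-only regions, and the siORCA 1 list is the longer of them. The median gap was 2181.5 bp to a siORCA 1 peak and 3797 bp to a siORCA 2 peak.

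At the edge of the rule, 159 control-only regions (1.78%) had a siORCA peak within 50 bp, and the closest, such as chr3:71844168-71844450 and chr10:133147464-133147725, missed one by 1 bp. Just outside the rule, in the 15628 regions with both control lists and 1 siORCA list, the siORCA peaks overlapped the control peaks by a median of 167 bp, and by 50 bp or less in 275 regions (1.76%). Near-contact thus decided the class of few regions. A siORCA peak within 1 kb was more usual, at 3085 control-only regions (34.5%), and leaving these out gave 5869 regions with a median gap of 29590 bp to an all-4 region.

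A few control-only regions lay far from any siORCA peak. At chr16:49167505-49167737, with fold enrichments of 4.29 in control 1 and 3.84 in control 2, the nearest siORCA 1 peak was 1692721 bp away and the nearest siORCA 2 peak 1031660 bp. At chr1:139586183-139586317 the nearest siORCA 1 and siORCA 2 peaks were 476732 and 476709 bp away, while another control-only region stood 35166 bp away. At chr20:29098827-29099172 the siORCA gaps were 444956 and 444915 bp in siORCA 1 and siORCA 2. The nearest other control-only region was also far from the chromosome 16 and chromosome 20 regions, at 1856763 and 518320 bp. Control peaks within these gaps were not counted, so whether the siORCA lists were emptier there than the control lists was not tested. Regions with no siORCA peak within 100 kb numbered 10 in all (0.112%).

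The surroundings of control-only regions held siORCA and control peaks at similar densities, relative to each list. Leaving out the control-only peaks themselves, peak density in the first 2 kb from the region edges was 1.48 times the list mean in siORCA 1 and 1.52 times in siORCA 2, against 1.501 times in control 1 and 1.53 times in control 2. From 2 to 10 kb the values were 1.64 and 1.72 in the siORCA samples 1 and 2, against 1.76 and 1.64 in the control samples 1 and 2, and from 40 to 50 kb they were 1.53, 1.62, 1.61 and 1.51 in the same order. The groups overlapped at each of these distances. Around siORCA-only regions the lists lay higher, between 1.85 and 2.23 times their means within 10 kb, where around control-only regions they lay between 1.61 and 1.71 times.

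**Figure D3:**
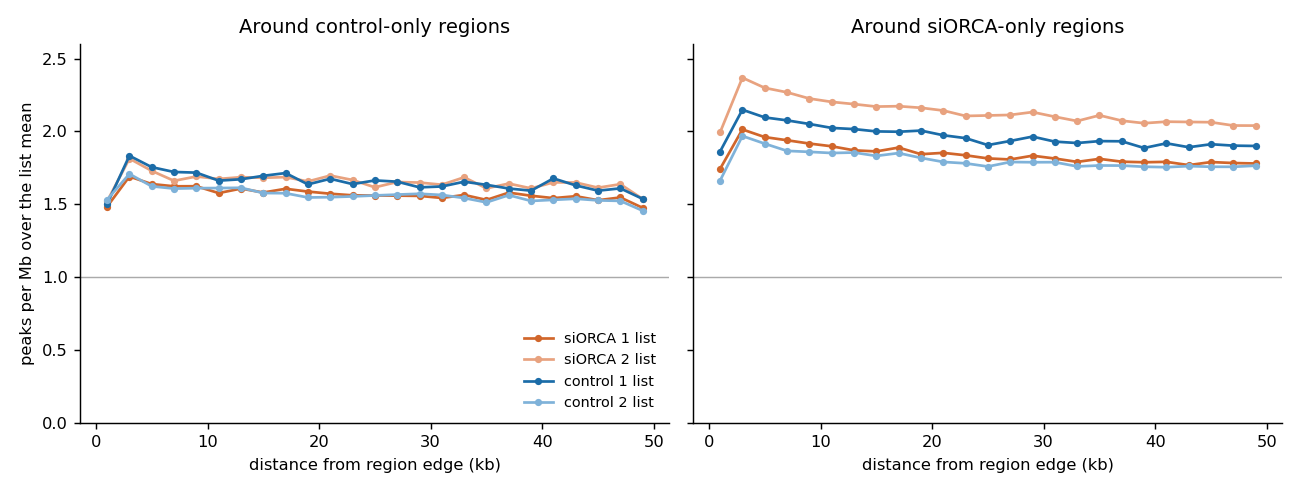
Peak density of each list (vertical axis, peaks per Mb over the mean of that list, exclusive peaks of the class itself left out) by distance from the region edge in bins of 2 kb, around control-only (left) and siORCA-only (right) regions. Within 10 kb of control-only regions the 4 lists lie between 1.61 and 1.71 times their means, with siORCA (orange) and control (blue) lists interleaved.

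The all-4 regions near control-only sites are not members of the class, and their width and strength were compared between the groups. The comparison is not independent of the rule, because the same peak lists set the regions, the class and the measures. A siORCA peak that reached a control-only site would have taken that site out of the class. Of all-4 regions, 6093 (10.7%) had a control-only region within 10 kb. They took 11.14% of the all-4 covered length in siORCA 1 and 11.00% in siORCA 2, against 11.15% in control 1 and 11.27% in control 2. The means were 11.07 ± 0.0971% in siORCA and 11.21 ± 0.0845% in control (SD, n = 2 each), a difference of −0.137 percentage points (exact permutation test over samples, two-sided, p = 0.33, the smallest that 2 against 2 samples allow). The median fold enrichment of these regions relative to the other all-4 regions gave log2 ratios of 0.0039 and 0.00051 in the siORCA samples 1 and 2, against 0.014 and 0.0073 in the control samples 1 and 2. The siORCA mean was lower by 0.0084 on this log2 scale (exact permutation p = 0.33), and the Benjamini-Hochberg value over these 2 tests was 0.33. In both measures the control samples were the higher ones without overlap, and neither difference could pass the test at this n. For the share of length, the groups overlapped in other settings. The siORCA 1 value exceeded that of control 1 with lists of equal covered length (15.68% against 15.62%). It also did at a −log10 q of at least 3 (3.66% against 3.62%) and at a distance of 50 kb (41.82% against 41.70%). The order held with gaps of 1 kb merged, with control peaks overlapping over 50%, and with no siORCA peak within 1 kb. How far the choice of sites without siORCA peaks set these differences was not tested. The sign of the log2 difference changed without siORCA 2 (0.016) and without control 2 (0.0065).

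Most control-only regions had no other control-only region within 10 kb, and 54.7% had one within 100 kb. The gap between a control-only region and the nearest other one had a median of 84750 bp, and 9.35% (837) had another within 10 kb. Joined over gaps of up to 10 kb they formed 8521 runs, of which 8117 were single regions, 375 were pairs and 29 held 3, the most seen. For siORCA-only regions, which are 3.25 times as many, 31.8% had another of their class within 10 kb and the longest run held 30. For all-4 regions these values were 68.2% and 50. A class with more regions has shorter gaps between them, and the part of number in these differences was not tested.

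The tightest of the 29 runs of 3 was on chromosome 15 at chr15:55280535-55282761. It spanned 2227 bp with 3 control 1 peaks, 3 control 2 peaks and no siORCA peak. The run at chr16:61588948-61593864 spanned 4917 bp and likewise held 3 peaks of each control and none of either siORCA list. The run at chr1:2611674-2616603 held 3 control 1 and 5 control 2 peaks and 1 siORCA-only region between them. Runs of 3 were equal in number, and these were taken for their short span after the values were seen. Over gaps of up to 50 kb, the longest run had 7 control-only regions in 170178 bp at chr9:140424796-140594973, but 19 all-4 and 10 siORCA-only regions lay among them.

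Among windows of 100 kb, 5853 held 1 control-only region, 1166 held 2, 196 held 3, 39 held 4 and 5 held 5. Those 5 windows were tied for the most, and their settings differed. On chromosome 9 from 140.5 to 140.6 Mb, the 5 control-only regions shared the window with 9 all-4 and 8 siORCA-only regions. On chromosome 14 from 96.6 to 96.7 Mb there was no all-4 and no siORCA-only region, and the window held 6 peaks in siORCA 1 and 5 in siORCA 2, against 9 in control 1 and 18 in control 2. On chromosome 15 from 55.2 to 55.3 Mb, 6 all-4 regions and no siORCA-only region stood beside them, and peak numbers were 14 and 12 in the siORCA samples 1 and 2, against 13 and 14 in the control samples 1 and 2. The control counts in these windows include the peaks of the control-only regions, which by the rule hold no siORCA peak. The contrast between the groups there is thus partly set by the choice of windows. The others were on chromosome 4 from 7.6 to 7.7 Mb and on chromosome 7 from 32.3 to 32.4 Mb, each with 5 all-4 regions. No window of 1 Mb held more than 14, reached on chromosome 2 from 237 to 238 Mb and on chromosome 11 from 120 to 121 Mb, where 70 and 65 regions had peaks in both control lists.

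Every chromosome carried control-only regions, from 123 on chromosome 21 to 910 on chromosome 1. Per Mb up to the last listed peak, they ranged from 0.953 on chromosome X to 5.14 on chromosome 19, and the order largely followed that of all-4 regions (Spearman's rho 0.95 over 23 chromosomes, which share the same lists). Relative to the origins that both controls listed, the order turned round. Control-only regions per 100 regions with both control lists were most frequent on chromosome 4 (20.7), chromosome X (18.5) and chromosome 13 (16.6), and least on chromosome 22 (5.94), chromosome 17 (6.58) and chromosome 19 (7.44). Chromosomes 4, 13 and X are known to be poor in genes, and 17, 19 and 22 to be rich in them. The siORCA-only share had a smaller range, from 15.4 per 100 on chromosome 19 to 28.9 on chromosome X, and decreased along the same order of chromosomes (rho −0.86 with all-4 regions per Mb for both classes). All-4 regions are part of both denominators, so a decrease with their density is partly built in.

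The distances to an all-4 region followed the same split, which is partly built in, because such a gap depends on how dense all-4 regions are. Per Mb there were 2.99 all-4 regions on chromosome X, 5.95 on chromosome 13 and 5.90 on chromosome 4. Chromosomes 22, 19 and 17 had 54.8, 52.6 and 46.2. The part of this density in the gaps was not tested. The median gap to an all-4 region was 97047 bp on chromosome X, 93006.5 bp on chromosome 13 and 63016 bp on chromosome 4, against 4893 bp on chromosome 22, 6607 bp on chromosome 19 and 7424 bp on chromosome 17. Median width varied little, between 270 bp on chromosome 7 and 358 bp on chromosome 22. The longest stretch between neighbouring control-only regions was 28.1 Mb on chromosome 9 (48452654 to 76589174), where the lists held 14 and 4 peaks in siORCA 1 and siORCA 2 and 7 and 21 in control 1 and control 2. The next longest were 9.64 Mb on chromosome X (17021635 to 26662741), which held 275, 44, 72 and 188 peaks in the same order of lists, and 9.60 Mb on chromosome 15 (5014347 to 14614760).

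**Figure D4:**
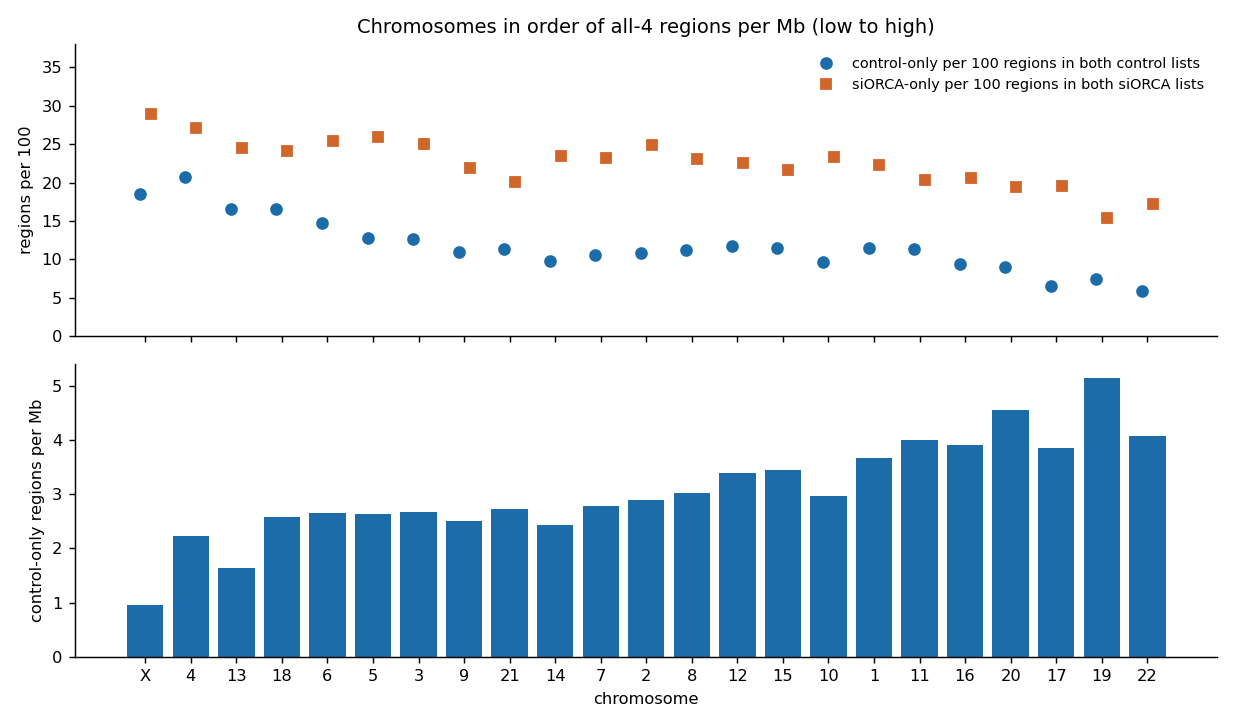
Chromosomes from left to right in order of all-4 regions per Mb. Top, control-only regions per 100 regions in both control lists (blue circles, 20.7 on chromosome 4 to 5.94 on chromosome 22) and siORCA-only regions per 100 in both siORCA lists (orange squares, 28.9 on chromosome X to 15.4 on chromosome 19). Bottom, control-only regions per Mb, from 0.953 on chromosome X to 5.14 on chromosome 19.

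Windows of 1 Mb differed in the same way between origin-poor and origin-rich parts of the genome. Control-only regions were present in 2577 of 3069 windows of 1 Mb (84.0%), with a median of 2. They averaged 0.668 per window where there was no all-4 region, 1.88 where there were 1 to 5, 4.16 where there were 21 to 40 and 6.04 where there were 81 or more. Windows with at most 5 all-4 regions held 2127 control-only regions. The siORCA-only regions were more unevenly spread, with 1.15, 3.64, 15.4 and 28.1 per window in the same 4 kinds. The number of siORCA-only regions for each control-only one was therefore 1.91 in windows with at most 5 all-4 regions, 3.27 in those with 6 to 40 and 4.30 in those with 41 or more. With lists of equal covered length these ratios were 1.09, 1.64 and 1.90.

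The size of this gradient changed with each list left out, and its direction changed without siORCA 2. With 1 siORCA list left, a siORCA-only region no longer needed peaks in 2 siORCA lists. The class then held 176879 regions without siORCA 2 and 66035 without siORCA 1, against 29106 with all lists. How far this looser rule set the changes was not tested. Without siORCA 2, which leaves siORCA 1 as the only siORCA list, the ratios ran the other way, at 13.2, 10.3 and 8.69 from the poorest to the richest windows. Without siORCA 1 they were 3.34, 4.23 and 4.14, without control 1 they were 0.201, 0.489 and 0.927, and without control 2 they were 0.399, 0.860 and 1.42. Windows with at most 5 all-4 regions held 17.6% and 11.3% of all peaks in the siORCA samples 1 and 2, against 15.1% and 19.1% in the control samples 1 and 2, so the groups overlapped and siORCA 2 was the lowest list. In windows with at least 41 all-4 regions, the ratio of the classes was 2.25 times that in windows with at most 5. Without siORCA 1 it was 1.24 times, without siORCA 2 0.660, without control 1 4.60 and without control 2 3.56. These changes did not follow the shares of peaks in every case. Leaving out siORCA 1, for example, kept the lowest list and lowered the ratio. The part of these shares in it was not tested.

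**Figure D5:**
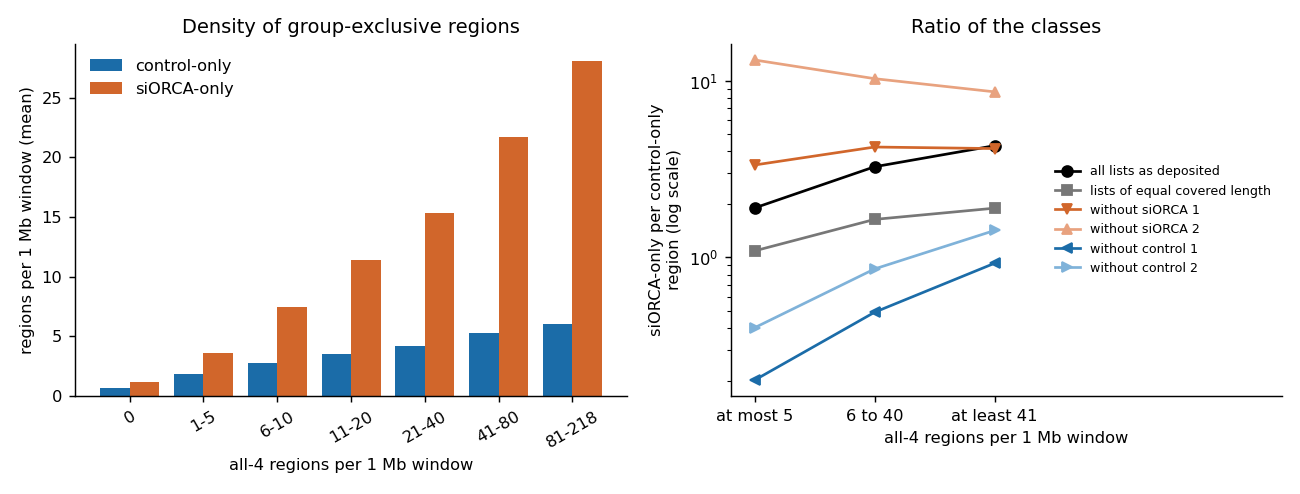
Left, mean number of control-only (blue) and siORCA-only (orange) regions per 1 Mb window, by the number of all-4 regions in the window, from 0.668 and 1.15 in windows with none to 6.04 and 28.1 in windows with 81 or more. Right, siORCA-only regions per control-only region (log axis) in poor, middle and rich windows for all lists (black, 1.91, 3.27 and 4.30), lists of equal covered length (grey) and with each list left out: without siORCA 2 the line falls, and without the other lists its last point lies above its first.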

How the data were processed

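Broad peak lists of 2 siORCA and 2 control nascent-strand samples were used. BWA, SAMtools and MACS2 and the T2T-CHM13 build are named in the submitters' processing notes, with versions, settings and the caller's background sample not given in the sources used here. Peaks were called per sample. Per the file columns, the authors deposited for each peak a position, a whole-number score (not used here), a fold enrichment as a linear ratio, a −log10 p and a −log10 q, and the lowest −log10 q was 1.303. Peaks on chromosomes 1 to 22 and X were merged where they touched or overlapped. Gaps are bases between region edges, and percentiles rank fold enrichment within a list.

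The members and the measures were chosen with earlier results of these data known. Named regions are the 6 with the highest lower rank, the 3 widest, the 3 farthest from siORCA peaks, and the runs, windows and chromosomes with the most or fewest. Single values were compared by two-sided exact permutation over samples. The merging and gap steps were tested on simulated data. Python 3.11.15, numpy 2.4.6, pandas 2.3.3, scipy 1.17.1 and matplotlib 3.10.9 were used. Alternatives were stricter or equal-length lists, a 1 kb merging gap, a stricter overlap, a 1 kb exclusion, a 50 kb distance, each replicate left out and the replicate block. The planned base composition and annotation were not run, because no genome of this build was used. The lists give no read counts, so depth is unknown.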

Additional observations from a re-analysis of the deposited data

How the results depend on the processing

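The lists hold no counts, so how far depth limits the presence calls was not tested. In what follows, distances are medians from control-only regions. After dropping peaks below a −log10 q of 3 there were 1973 regions, 31560 bp from an all-4 region, 25691 bp from a siORCA-only region and 2358 bp from any siORCA peak, with a width of 278 bp, and 3.14% had another within 10 kb. With lists of equal covered length the distances were 19474.5, 40738 and 2354 bp in that order, the width 334.5 bp and the share 12.6%. With gaps of 1 kb merged they were 24308, 46393 and 3136 bp, 450 bp and 6.73%, and the log2 difference in relative fold enrichment of nearby all-4 regions turned to 0.0018. With control peaks that overlap over at least 50% of the shorter, the width was 292 bp and the share 7.79%. With no siORCA peak within 1 kb there were 5869 regions, at 29590, 36476 and 3161 bp, with a width of 294 bp and a share of 5.79%. The highest chromosome then exceeded the lowest by 5.52 times in control-only regions per 100, against 3.49 times in the full lists, and the ratio of siORCA-only to control-only regions was 4.08 times as high in origin-rich as in origin-poor windows, against 2.25 times. A distance of 50 kb gave a share of 34.9% and a log2 difference of 0.0015. Leaving out 1 list at a time gave 16415 to 104393 regions, distances of 11153 to 16769, 3855 to 19439 and 1821 to 3175 bp, widths of 156 to 336 bp, shares of 18.3% to 57.5%, and chromosome ratios of 2.26 to 2.50. The difference in share of all-4 length ran from −0.417 to −0.0971 percentage points, the log2 difference from −0.013 to 0.016 (0.0162 without siORCA 2 and 0.0065 without control 2), and the rich-to-poor ratio from 0.660 without siORCA 2 to 4.60 without control 1. The ratio between windows and its alternatives were chosen after seeing the data. With the replicate number as a block, the differences of −0.137 percentage points and −0.0084 kept their values at an exact permutation p of 0.5, the smallest that 2 pairs allow. Same-numbered samples deviated in opposite directions (r −0.51 over 3023 windows). A block that pairs control 1 with siORCA 2, chosen after seeing the data, also gave an exact permutation p of 0.5.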
